A study of Mus musculus with 19 samples.

Results

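The hippocampus of mice fed lithium in their chow for 4 weeks was compared with that of vehicle-treated mice on arrays that measure small RNA. The comparison used the 4 arrays titled lithium and the 4 titled control, 8 of the 19 arrays of the series, chosen by these titles. All mice were adult C57BL/6 males, and each array held RNA of a right hippocampus. Lithium mice had chow with 0.2% lithium in the sample labels, while the protocol text gives 2%. Control mice had vehicle into the nose, at 5 µL per nostril and on alternate days over 3 days. The groups therefore differed in route and in the length of treatment as well as in the drug. None of the 5 groups of the series had plain chow as its only treatment.

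Lithium is a mood stabiliser taken for bipolar disorder. Among its known actions is inhibition of GSK3 (glycogen synthase kinase 3), an enzyme that phosphorylates many proteins in neurons, among them β-catenin, whose breakdown it promotes. MicroRNAs (miRNAs) are short RNAs that guide Argonaute proteins to messenger RNAs with a matching site, which lowers the translation or the stability of those messengers. The hippocampus, a brain region needed for forming memories, holds many miRNAs at high levels in its neurons and glia. In bulk tissue such as this, fewer cells of a type and less RNA per cell cannot be told apart.

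Each probe is known here by its vendor code, because the files do not pair codes with miRNA names. The tissue could therefore not be checked against marker miRNAs, no probe could be given a role in the cell, and no sequence is shown. Levels are log2 intensities after background correction and quantile normalization. A difference of 1 unit is a doubling or halving of that normalized intensity, which includes an added offset of 50. Each probe is printed as 3 spots in 1 of 8 blocks of the array. Adjusted p-values are from limma, fitted over all 19 arrays and adjusted over 3421 tested probes by the Benjamini-Hochberg method, with a threshold of 0.05. The labels do not say that each array came from a separate mouse, so these p-values measure the spread between samples, part of which may be technical.

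The lithium arrays were on 1 slide and the control arrays on another, and an effect of the slide and one of lithium cannot be told apart. Median local background was higher on the lithium slide, at 110 ± 5.25 (SD, n = 4) against 94.6 ± 4.82 (SD, n = 4), with no overlap (107 to 118 against 90 to 101). The difference of 15.6 had an exact two-sided permutation p of 0.0286, the smallest that 4 against 4 arrays allow, and 0.0714 after adjustment over 5 array-wide measures. Spots that the scanner software marked as not found were also more numerous, 4251 to 4487 per lithium array against 3658 to 4167 (exact p = 0.0286, adjusted 0.0714). Median foreground (exact p = 0.114), the number of detected probes (exact p = 0.6) and the spread among the 3 spots of a probe (exact p = 1) did not pass. The median correlation of 2 arrays over all probes, a description, was 0.995 within a group and 0.994 between groups.

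In lithium hippocampus 80 of the 3421 probes differed from control, 2.34% of those tested, and 468 (13.7%) had an unadjusted p under 0.05. Of these, 35 rose (1.02%) and 45 fell (1.32%). Most rises were small, with 29 below 0.5 log2 units, 4 between 0.5 and 1, and 2 above 1. Falls were larger, with 13 smaller than 0.5, 17 between 0.5 and 1 and 15 beyond 1. The lowest rise called was 0.19 and the smallest fall -0.23. Over all tested probes the median difference was 0.01, and the central 95% of probes lay between -0.36 and 0.27. The split depended on the scaling of arrays: 10 rose and 40 fell with median scaling, 22 and 60 with cyclic loess and 21 and 42 with scaling to the 75th percentile. The count was 44 without control replicate 2 and 49 without lithium replicate 2 or lithium replicate 3. Falls numbered 74 without L803mts replicate 2, an array of another treatment on a slide of its own that enters the shared estimate of spread.

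**Figure D1:**
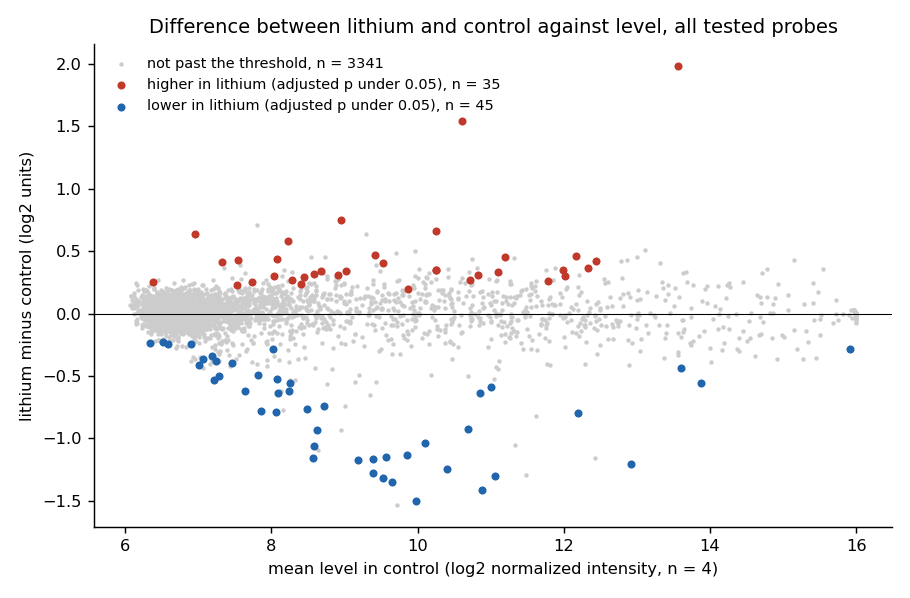
Difference between lithium and control (vertical axis, log2 units) against the mean control level (horizontal axis, log2 normalized intensity) for each of the 3421 tested probes. The 45 falls reach -1.50 and include a group of probes of middle level, while all but 2 of the 35 rises lie below 1.

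Changed probes came mainly from the middle of the intensity range. Among the 1791 probes under 7 in control 0.335% changed, against 7.64% of the 432 probes between 8 and 10 and 6.34% of the 268 between 10 and 12. Of the 274 brightest probes, at 12 or more, 3.65% changed. The median fall among called probes was -1.06 between 8 and 10 and -1.04 between 10 and 12. It was -0.56 at 12 or more, -0.45 between 7 and 8 and -0.24 under 7. The offset of 50 makes differences of dim probes smaller on this scale. ORB_0510250, at 6.95 in control, rose by 0.64 here and by 1.19 with plain background subtraction.

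Control and lithium arrays did not overlap for all 35 called rises and for 43 of the 45 called falls. Over all tested probes 8.68% had groups that did not overlap, 4.56% upward and 4.12% downward. Before normalization, on background-subtracted intensities, the groups were apart for 39 of the called falls and 7 of the called rises, against 3.45% of tested probes downward and 1.4% upward. The spread over arrays was similar in both groups, with a median SD per probe of 0.11 in control and 0.10 in lithium.

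The largest rise was that of ORB_1210051. Its control arrays stood at 13.33, 13.48, 13.55 and 13.90 and its lithium arrays at 15.85, 15.65, 14.76 and 15.94 for replicates 1 to 4. Lithium replicate 3 was the lowest of its group and still lay above every control array. Its rise came to 1.98 log2 units (SE 0.26, adjusted p = 0.000883) and 3.95-fold, with 1 of its 24 spots on these 8 arrays saturated. On the raw scale its background-subtracted intensity ran from 11048 to 15032 in control and from 35518 to 61993 in lithium.

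ORB_0511275, the next largest, stood at 10.48, 10.43, 10.89 and 10.65 in control and at 12.75, 12.08, 11.71 and 12.08 in lithium. All lithium arrays were above all control arrays, and lithium replicate 1 was the highest. The rise was 1.54 (SE 0.35, adjusted p = 0.0289), or 2.91-fold, but 6 of the 8 fits with 1 control or lithium array left out did not call it, those lacking replicate 1, 2 or 4 of either group (adjusted p up to 0.0935). It was also not called with plain background subtraction (adjusted p = 0.053) or with trend and robust moderation (adjusted p = 0.0505).

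ORB_1112258 rose from 8.96 ± 0.14 to 9.70 ± 0.12 (SD, n = 4 each), by 0.75 (SE 0.12, adjusted p = 0.00249), or 1.68-fold. Its control arrays lay at 8.78, 9.06, 9.09 and 8.90 and its lithium arrays at 9.87, 9.63, 9.62 and 9.69, a gap wider than the spread in either group. Probe 3268 rose by 0.58 (SE 0.09, adjusted p = 0.0031), from arrays at 8.29, 8.30, 8.17 and 8.14 to arrays at 8.90, 8.69, 8.55 and 9.09. ORB_1210381 rose by 0.47 (SE 0.09, adjusted p = 0.00862), with control arrays between 9.31 and 9.62 and lithium arrays between 9.76 and 10.03. These 3 probes kept their call in each fit that left out a control or lithium array, but lost it when spots marked as not found were left out. There ORB_1112258 stood at 0.41 (adjusted p = 0.328), 3268 at 0.31 (adjusted p = 0.171) and ORB_1210381 at 0.17 (adjusted p = 0.49). Under that setting 10 of the 12 largest rises lost their call, all but ORB_1210051 and ORB_0511275, and the median difference over all tested probes was -0.12. Of the 12, only ORB_0510250 had spots marked as not found on these 8 arrays (4 of 24). The others had none (0), so their differences moved through the normalization without such spots of other probes.

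The other 7 of the 12 largest rises lay between 0.42 and 0.66 log2 units. ORB_0511383 (0.66, adjusted p = 0.0373) and ORB_0510250 (0.64, adjusted p = 0.0409) each lost their call in 7 of those 8 fits, all but the one without control replicate 2 (adjusted p up to 0.114 and 0.125). Probes 1423 (0.46, adjusted p = 0.0409) and ORB_1210646 (0.45, adjusted p = 0.0488) lost it in 6 of 8, those lacking control replicate 2, 3 or 4, or replicate 1, 3 or 4 of lithium (adjusted p up to 0.133 and 0.157). ORB_1210652 (0.44, adjusted p = 0.0139) lost it without lithium replicate 2 or 3 (adjusted p up to 0.0553), and its lithium replicate 1, at 8.21, lay well below the other 3 at 8.60 to 8.66. ORB_1112158 (0.43, adjusted p = 0.0139) and ORB_1112102 (0.42, adjusted p = 0.00862) kept it in all 8. Without not-found spots, however, ORB_1112158 stood at 0.23 (adjusted p = 0.271) and ORB_1112102 at 0.21 (adjusted p = 0.423). Neither was called with control and lithium arrays only (adjusted p = 0.107 and 0.0836), nor was ORB_1112102 with median scaling (adjusted p = 0.519). The 3 spots of a probe did not always agree in separating the groups: all 3 spot positions did so for 6 of the 12 rises, 2 for another 2, and 1 for the remaining 4. Before normalization the groups were apart for 5 of the 12, against 1.4% of tested probes upward. The 12 were picked because the average of the same spots separated the groups, so these counts are a description.

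**Figure D2:**
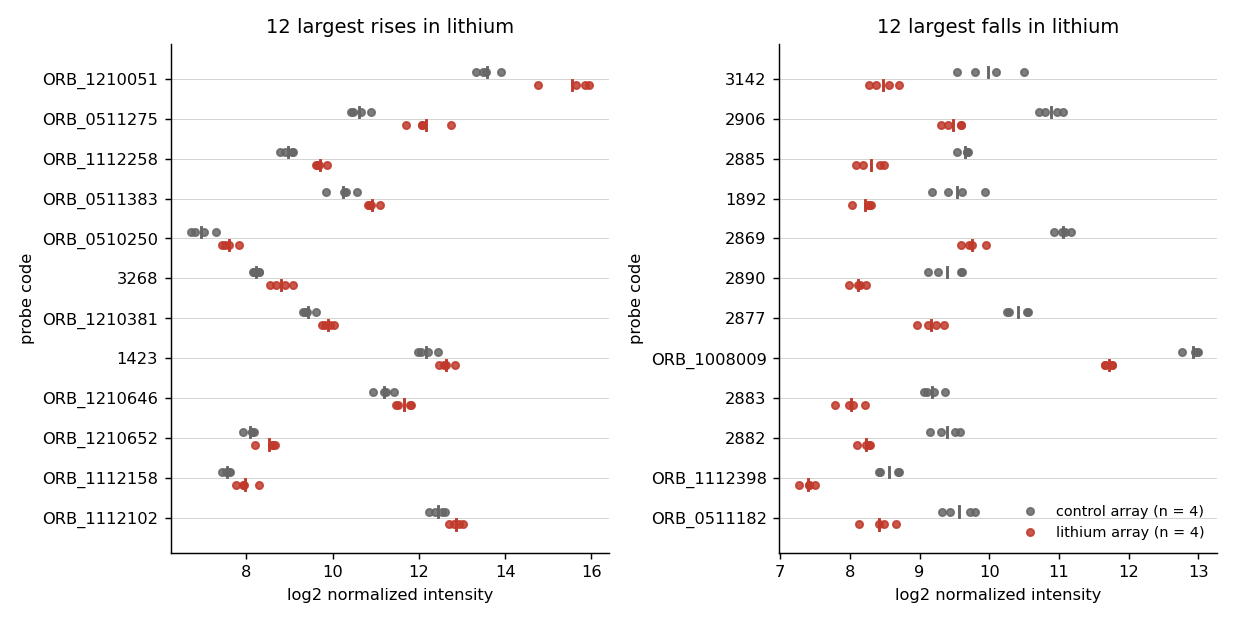
Level of each of the 12 largest rises (left) and 12 largest falls (right) on the 4 control arrays (grey) and 4 lithium arrays (red), in log2 normalized intensity, with the group mean as a short bar. The groups do not overlap for any of the 24 probes, as the rule for naming them required, and only ORB_1210051 and ORB_0511275 among the rises moved as far as the falls.

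The 12 largest falls lay between -1.15 and -1.50 log2 units, so that lithium arrays held 35.3% to 45.1% of the normalized control intensity. That intensity includes the offset of 50. With plain background subtraction, which adds no offset, each of the 12 fell further, from -1.22 in ORB_1008009 to -1.76 in 3142. Probe 3142 had the largest fall. Its control arrays stood at 10.50, 10.09, 9.79 and 9.54 and its lithium arrays at 8.71, 8.56, 8.38 and 8.27, a difference of -1.50 (SE 0.30, adjusted p = 0.0115). The spread over control arrays was the widest of the 12 (SD 0.41). Its call was lost with plain background subtraction (adjusted p = 0.105).

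Probe 2869 had the smallest p. Control arrays stood at 11.08, 11.04, 11.17 and 10.93, lithium arrays at 9.95, 9.75, 9.71 and 9.59. The fall of -1.30 (SE 0.15, adjusted p = 0.000553), to 40.6% of control, was many times the SD of 0.10 in control and 0.15 in lithium. Probe 2906 fell from 10.80, 10.98, 11.06 and 10.71 to 9.60, 9.60, 9.31 and 9.40, by -1.41 (SE 0.27, adjusted p = 0.00862), the second largest fall. Probe 2885 fell from 9.54, 9.70, 9.68 and 9.67 to 8.49, 8.44, 8.19 and 8.10, by -1.35 (SE 0.21, adjusted p = 0.00234). The control arrays of 2885 spanned less than those of any other of the 12, with an SD of 0.08.

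ORB_1008009 was the brightest of the 12 falls. Its control arrays stood at 12.99, 12.94, 12.98 and 12.76 and its lithium arrays at 11.77, 11.76, 11.67 and 11.67, a fall of -1.20 (SE 0.26, adjusted p = 0.0187). Its SDs were 0.11 and 0.06, far below the SE, which was estimated over all 5 groups. Its background-subtracted intensity ran from 8313 to 11446 in control and from 3121 to 4282 in lithium. No call was made when control replicate 2 was left out, or replicate 3 of lithium (adjusted p up to 0.0571), or without not-found spots (adjusted p = 0.0521). None (0) of its own spots on the control and lithium arrays was marked as not found. On the arrays of L803mts it ranged from 10.48, in replicate 2, to 12.27. That replicate, on a slide of its own, was the lowest L803mts array in each of the 12 falls. In 3142 it stood at 7.21, against 8.50 to 9.03 on the other L803mts arrays. Whether the slide had a part in this was not tested. ORB_1112398, the dimmest, fell from 8.71, 8.69, 8.43 and 8.42 to 7.42, 7.51, 7.42 and 7.28, by -1.16 (SE 0.18, adjusted p = 0.00234).

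The other 6 falls were probes 1892 (-1.32, adjusted p = 0.0139), 2890 (-1.27, adjusted p = 0.00862), 2877 (-1.24, adjusted p = 0.0227), 2883 (-1.17, adjusted p = 0.00249), 2882 (-1.16, adjusted p = 0.00787) and ORB_0511182 (-1.15, adjusted p = 0.0435). Of these, 2877 lost its call in 5 of 8 fits without 1 array, those lacking control replicate 2 or 3, or replicate 2, 3 or 4 of lithium (adjusted p up to 0.0777), and ORB_0511182 in all 8 (adjusted p up to 0.131). With plain background subtraction the calls of 1892 (adjusted p = 0.0724), 2890 (adjusted p = 0.0541), 2877 (adjusted p = 0.0722) and ORB_0511182 (adjusted p = 0.137) were lost. All 3 spot positions separated the groups for each of the 12, and so did the intensities before normalization, against 3.45% of tested probes downward. These probes were picked because the average of the same spots separated the groups, so these counts are a description and no separate support. The share of all tested probes with 3 such positions was not computed. Of the 12 falls, 6 kept their call under every alternative tried, as did 1 of the 12 rises, ORB_1210051.

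A further 5 probes lay more than 1 log2 unit below control without passing the threshold. ORB_1112497 differed by -1.29 (adjusted p = 0.081), 1527 by -1.16 (adjusted p = 0.0984) and 1812 by -1.06 (adjusted p = 0.0878), and in each the lithium arrays all lay below the control arrays. For 1527 the control arrays stood at 12.44, 12.42, 12.56 and 12.31 and the lithium arrays at 11.40, 11.28, 11.26 and 11.17. The remaining 2 rested on 1 control array: IGN_orb_0408010 stood at 13.05, 9.67, 8.07 and 8.10 in control (difference -1.53, adjusted p = 0.628), and 2324 at 10.86, 8.21, 7.72 and 7.75 (difference -1.09, adjusted p = 0.597). In both, control replicate 1 was far above the others.

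The changed probes were unevenly placed on the array. Blocks 1, 2 and 3 held 38 of the 45 falls, or 84.4%, and 37.5% of the tested probes. Blocks 2 and 6 held 29 of the 35 rises, or 82.9%, and 25.1% of the tested probes. Block 1 had 10 falls and no rise (0), block 3 had 17 falls and 1 rise, and block 6 had 17 rises and 4 falls. These blocks were picked after their counts were seen. Medians over all probes of a block differed little, from -0.02 in block 3 to 0.04 in block 6. With the median of each block centred within each array, an alternative chosen after seeing the data, 45 probes rose and 55 fell. What part printing position has in the calls was not tested.

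**Figure D3:**
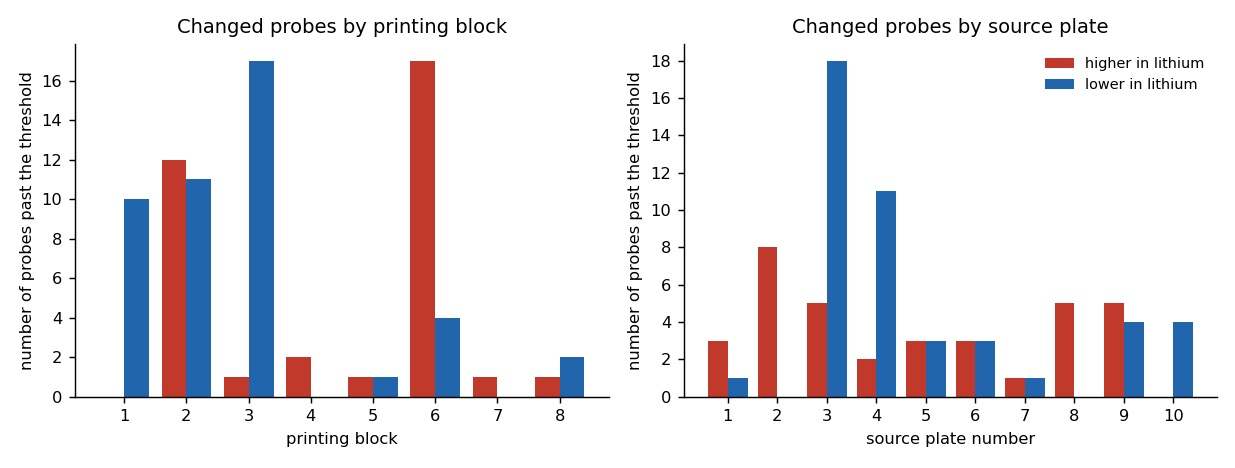
Number of probes past the threshold, higher (red) and lower (blue) in lithium, by printing block of the array (left) and by source plate (right). Blocks 1 to 3 hold 38 of the 45 falls, blocks 2 and 6 hold 29 of the 35 rises, and plates 3 and 4 gave 29 of the 45 falls.

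The files also give each probe a number from 1 to 10 with a letter and number position, read here as its source plate and well. Plates 3 and 4 gave 29 of the 45 falls, or 64.4%, and 22.3% of the tested probes. Within these plates, 25 of the 287 probes printed in blocks 1 to 3 fell, against 4 of the 477 printed in blocks 4 to 8. From the other plates 13 of 997 probes in blocks 1 to 3 fell. All 12 of the largest falls were in blocks 1 to 3, and 10 of them came from plates 3 and 4.

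Many of the falling probes had neighbouring codes. Between codes 2869 and 2910, a range chosen after its values were seen, 37 probes were tested, 36 of them in blocks 1 to 3 and 35 from plate 3. Of these 11 fell and none (0) rose, against 1.32% and 1.02% of all tested probes. The probes that fell were mixed with ones that did not pass. Probes 2881 (12.73 in control, difference -0.07) and 2896 (12.11, difference 0.05) lay among them, in blocks 3 and 1. Probe 2907 was saturated in all its 24 spots, so that a difference could not be measured there. The median difference over the 37 probes was -0.10, and 29 of them were below 0.

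To find what set lithium apart from the other treatments, its arrays were also tested against the mean of the 3 other treated groups, given siRNA to GSK3beta (siGSK3b, 10 µg, 4 arrays), the GSK3 inhibitor peptide L803mts (60 µg, 4 arrays) or ketamine (10 mg/kg, 3 arrays). The label of replicate 4 gives 11 µg for the siRNA and 61 µg for the peptide. The siRNA and the peptide went into the nose and ketamine into the peritoneum. The control arrays do not enter this contrast. No array of another treatment was on the lithium slide, so slide and treatment cannot be told apart here either. Of 3421 probes 1 (0.0292%) passed, ORB_1210600, while 325 (9.5%) had an unadjusted p under 0.05 in limma. ORB_1210600 was 0.24 log2 units higher in lithium than in the mean of the other treated groups (SE 0.03, adjusted p = 0.00327). Its lithium arrays stood at 8.32, 8.35, 8.37 and 8.32 and its control arrays at 7.99, 8.02, 8.09 and 8.07. The siGSK3b arrays lay between 7.97 and 8.05, the L803mts arrays between 8.18 and 8.23, and the ketamine arrays between 8.04 and 8.19.

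Each lithium array was thus above each of the other 15 arrays of the series, although L803mts was also above control. Against control ORB_1210600 rose by 0.30 (SE 0.04, adjusted p = 0.00083), or 1.23-fold. The step was small in raw intensity, and there the groups overlapped, from 177 to 239 in control and from 235 to 298 in lithium. Both calls were lost with median scaling and without not-found spots, although none (0) of the spots of ORB_1210600 on the control and lithium arrays was so marked. The call against the other treatments was also lost with scaling to the 75th percentile and with trend and robust moderation.

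**Figure D4:**
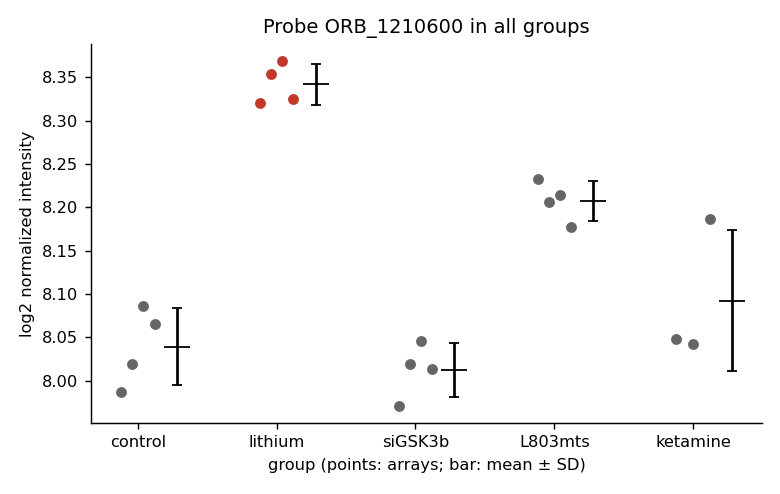
Level of probe ORB_1210600 in log2 normalized intensity on every array of the 5 groups (points), with the group mean and SD beside them. The 4 lithium arrays lie from 8.32 to 8.37, above the highest array of any other group, which is an L803mts array at 8.23.

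None (0) of the 24 named rises and falls passed in limma between lithium and the mean of the other treated groups. There 7 rises and 0 falls had an unadjusted p under 0.05, against 9.5% of all tested probes. The 24 were picked by a difference from control that uses the same lithium arrays, so these counts are a description. For the 12 falls the difference between lithium and that mean ran from -0.19 to 0.05 (adjusted p at least 0.842). This was much smaller than their distance of -1.15 to -1.50 from control. For the 12 rises it ran from -0.17 to 0.51 (adjusted p at least 0.0765), with the highest value in ORB_1112258 and the next, 0.50, in ORB_0511383 (adjusted p = 0.157). The mean of the other treated groups joins groups on both sides of lithium. In each of the 12 falls the siGSK3b mean lay above that of lithium and the ketamine mean below it. The siGSK3b, L803mts and ketamine means all lay below control in each of these falls, as the lithium mean did. ORB_1008009 stood at 12.92 in control, 12.41 in siGSK3b, 11.68 in L803mts and 11.41 in ketamine. For the 12 rises these means lay above control, except the ketamine mean in ORB_0511383, ORB_0510250 and 1423. Most of these directions were thus not particular to lithium. Whether the control slide, which held no treated array, had a part in this was not tested. Probe 3142 stood at 9.34 in siGSK3b, 8.48 in lithium and 8.06 in ketamine. The level of 2869 was 9.75 ± 0.15 in lithium (SD, n = 4), 10.31 ± 0.15 in siGSK3b (SD, n = 4), 9.77 ± 0.43 in L803mts (SD, n = 4) and 9.51 ± 0.06 in ketamine (SD, n = 3). That of ORB_0511275 was 12.15 ± 0.43, 11.67 ± 0.16, 12.06 ± 1.04 and 13.24 ± 0.18 in the same order. L803mts replicate 2 lay apart from its group in both probes. It stood at 9.18 against 9.82 to 10.21 in 2869, and at 13.55 against 11.15 to 11.87 in ORB_0511275. In both probes lithium lay within the range of the other treated groups' means. Missing the threshold leaves these levels not shown to be alike.

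The authors' deposited table of processed values holds 747 of the probes, and its own lithium and control columns were tested in the same way on the log2 scale. It gave 9 calls (1.2%), 4 rises (0.535%) and 5 falls (0.669%), with 90 probes at an unadjusted p under 0.05. Of the 9, 8 were also called in the scanner values, each in the same direction. The scanner values called 18 probes of the table, 13 upward and 5 downward. All 18 had the same sign in the authors' table, as did 92.8% of all 747 probes. None (0) of the 12 largest falls and 4 of the 12 largest rises are in that table.

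ORB_1112258 was the largest rise there, from processed intensities of 387, 476, 458 and 414 in control to 893, 711, 707 and 770 in lithium (log2 difference 0.83, SE 0.14, adjusted p = 0.00854). ORB_1210600 rose from 187, 201, 205 and 198 to 259, 246, 247 and 260 (0.36, SE 0.07, adjusted p = 0.0115), with no overlap on this scale. ORB_1210652 (0.53, adjusted p = 0.0252) and 2181 (0.35, adjusted p = 0.0471) were the other rises. The largest fall was that of ORB_1112352, from 1088, 1024, 572 and 778 to 248, 226, 315 and 771 (-1.30, SE 0.31, adjusted p = 0.0489). Its lithium replicate 4 stood within the control range, as it also did in the scanner values.

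Probe 3252, the brightest of the falls in that table, fell from 12095, 15370, 17817 and 16564 to 9378, 10021, 10783 and 10174 in the authors' table (-0.60, SE 0.11, adjusted p = 0.0115), to 65.8% of control. Probes 1852 (-0.73, adjusted p = 0.0252), ORB_0409040 (-0.69, adjusted p = 0.0471) and ORB_0510279 (-0.53, adjusted p = 0.0489) fell as well. ORB_0510279 was the probe not called in the scanner values (-0.41, adjusted p = 0.0693). Over the 747 probes the differences of both sources correlated at 0.96, as a description of the same arrays processed in 2 ways.

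**Figure D5:**
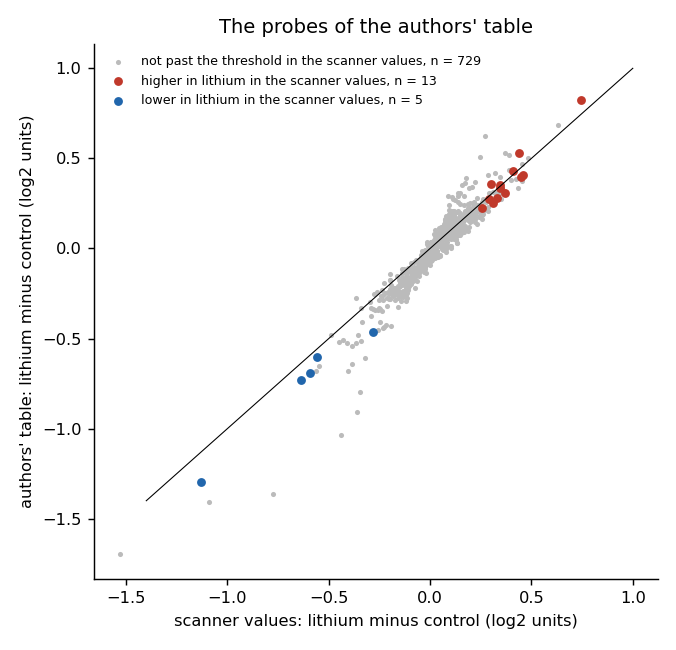
Lithium minus control in log2 units from the scanner values (horizontal axis) and from the authors' table (vertical axis) for the 747 probes of that table, with the line of equality. The 13 rises and 5 falls called in the scanner values keep their sign, as do 92.8% of all 747 probes. The differences of both sources correlate at 0.96.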

How the data were processed

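Small RNA of right hippocampus, labelled with Oyster-550, was measured on 19 1-colour arrays, per the labels' protocols. Per the file headers, the deposited intensities were made with GenePix Pro 4.1.1.4 without normalization, and each file covers a slide of 4 arrays in 32 blocks, of which the labels name the 8 of each sample. No source used here gives the normalization of the authors' table of intensities, so its centring stays unknown. Its 4778 cells with decimals were multiplied by 1000, which brought the lowest correlation with the scanner values to 1.000 from at most -0.22, and so settled scale and direction. Its column medians were 343, 334, 328 and 315 for control replicates 1 to 4 and 322, 316, 325 and 333 for lithium.

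Foreground and local background medians were combined with normexp (offset 50) in limma 3.58.1 under R 4.3.3, the 3 spots of a probe were averaged on the log2 scale without spots marked bad, and quantiles were then equalised over arrays. On each array 40 spots with no probe (empty, blank or spike-in) were left out. Of 3432 probes, 3421 exceeded local background by 2 background SDs on at least 3 arrays. That SD came from the median absolute deviation of the local backgrounds of an array, since the files give none per spot. One limma model with a mean per group covered all 19 arrays, followed by its empirical Bayes step. Quantile normalization and the limma fit were also run on simulated probe values with independent noise. Background correction, spot averaging, the detection filter and slide differences were not simulated. The number of arrays limits the precision.

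Named probes were the 12 largest rises and 12 largest falls past the threshold whose lithium arrays all lay beyond all control arrays, and up to 4 in each direction against the other treated groups. Probes, lists and tests were chosen with earlier results of these data known. The planned miRNA and cell type lists could not be applied, since 0 of the non-numeric codes matched a name in the reference tables.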

Additional observations from a re-analysis of the deposited data

Results flagged for a closer look

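A few arrays stood far from the others of their group. Among 62 checks of 4 arrays each, 6 had a gap that chance gives in about 1 group in 20, or 3.1 here. For ORB_1210652 lithium replicate 1 was at 8.21, below the other 3 at 8.60 to 8.66. For 2885 control replicate 1 was at 9.54, below 9.67 to 9.70, and for 1892 lithium replicate 4 was at 8.03, below 8.26 to 8.31. The median SD among the 3 spots of a probe was 0.151 in control replicate 1, against 0.136 to 0.138 in the others, and 0.146 in lithium replicate 1, against 0.139 to 0.140. Control replicate 4 had 4167 spots marked as not found, against 3658 to 3714.

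ORB_1210600 was 0.238 log2 units higher in lithium than in the mean of the other treated groups, a difference that passed its own test (adjusted p = 0.00327 in limma).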

How the results depend on the processing

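Every named probe kept its direction under all alternatives run (0 reversals among 640 values), while 108 of these values lost their call. Plain background subtraction gave 37 changed probes, 16 up and 21 down, median scaling 50 (10 and 40), leaving out not-found spots 52 (3 and 49, over 2406 probes with the median of all probes at -0.12), the processed values of the authors gave 9 (4 and 5), and the scanner values of the authors' probes alone, an alternative chosen after seeing the data, 20 (13 and 7). Rises numbered 22 with cyclic loess, 21 with scaling to the 75th percentile, 23 with trend and robust moderation and 18 with control and lithium arrays only. Leaving out 1 array gave 44 to 120 changed probes, 17 to 46 rises and 25 to 74 falls. The highest values came without L803mts replicate 2, an omission chosen after seeing the data, as was that of ketamine replicate 1, which gave 70. Against the mean of the other treated groups, where 1 probe passed, plain subtraction gave 4, median scaling 0, cyclic loess 3, scaling to the 75th percentile 23, leaving out not-found spots 0, the authors' processed values 13, trend and robust moderation 2, array weights 3, the replicate block 2, centred block medians 10 and the authors' probes alone 14. Leaving out 1 array gave 1 to 10, the highest without L803mts replicate 1 or 4. The cause was not tested. Slide as a random block gave 63, but only L803mts spans 2 slides, so that it cannot remove a difference between the lithium and control slides. Replicate numbers, which follow the array position in these groups, did not pair the arrays (correlations of same-numbered deviations -0.15 to -0.07, 0 of 4 highest with its own number), and the replicate block gave 75, 32 up and 43 down. Lithium arrays had higher backgrounds (adjusted p = 0.0714 in the exact permutation test), which limits what dim probes can show.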
